A study of Homo sapiens with 14 samples.

Results

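The RNA of A549 cells, a human lung cancer line, was compared after treatment with the CDK2/4/6 inhibitor PF-06873600 and after treatment with the CDK4/6 inhibitor palbociclib. The comparison used the 2 libraries titled PF (0.5 µM PF-06873600 for 7 days) and the 2 libraries titled PD (2 µM palbociclib for 10 days), 4 of the 14 libraries of the series, and was described across all genes. The 2 libraries of untreated A549 cells, whose time of collection is not given in the sources used here, served as the background. All of these cells came from the same line, grown in the same medium, and carried no added genetic change. Compound, dose and time differ together between the 2 treatments, so a difference between them cannot be assigned to any one of the 3. The series calls its duplicates technical, so the p-values measure the spread between these libraries, which may be technical. Genes typical of A549, among them aldo-keto reductases and keratins, were abundant throughout: the summed level of 15 of them lay between 35976 and 41543 CPM (counts of a gene scaled to the library's total) in the 6 libraries.

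Cells pass from the first gap phase of the cell cycle into DNA synthesis when CDK4 and CDK6 with D cyclins, and then CDK2 with E and A cyclins, phosphorylate the retinoblastoma protein RB and release the E2F transcription factors. E2F factors switch on genes of DNA replication and nucleotide synthesis, while a later wave of genes, bound by the MuvB complex with B-MYB and FOXM1, serves mitosis. Palbociclib blocks the first pair of kinases and PF-06873600 is described to block CDK2 as well. CDKN1A (p21) and CDKN1B (p27) are proteins that hold CDK complexes in check, and p53 is the factor best known for switching on CDKN1A.

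The whole-gene totals of the 6 libraries ran from 13060374 to 16388606 counts. The smallest level a library could show, set at 3 counts, was 0.183 to 0.230 CPM. Of 60683 gene identifiers, 15780 had enough counts to be tested with edgeR's quasi-likelihood test, and a gene was called at a Benjamini-Hochberg adjusted p under 0.05. The median absolute log2 difference over these genes was 0.0907 between the 2 PF-06873600 libraries and 0.111 between the 2 palbociclib libraries, but 0.331 to 0.338 between a library of one drug and a library of the other. The untreated pair lay further apart, at 0.178. The palbociclib libraries were 0.194 to 0.225 from the untreated ones, and the PF-06873600 libraries 0.411 to 0.443.

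Set against palbociclib, PF-06873600 gave 3773 genes with higher and 3424 with lower levels. That is 23.9% and 21.7% of the genes tested, or 45.6% together, so the counts of every gene group are read against a background in which nearly every other gene was called. Most of these differences were small. The median fold of the called genes was 1.54 among those higher and 1.43 among those lower. At least 2-fold differences were found for 1147 higher genes (7.27% of those tested) and 606 lower genes (3.84%), and at least 4-fold differences for 406 higher (2.57%) and 117 lower (0.741%). The larger differences were thus more often upward. Against untreated cells, PF-06873600 gave 4491 higher (28.5%) and 4392 lower genes (27.8%), 56.3% in all. Palbociclib gave 1310 higher (8.3%) and 1168 lower (7.4%), 15.7% in all. The palbociclib counts depend on the fit: they were 543 and 406 in a model of the compared groups alone, 816 and 656 without palbociclib replicate 1 and 779 and 522 without palbociclib replicate 2, and the lower count was 617 by DESeq2. These 2 comparisons share the untreated libraries and each shares a treated group with the main comparison, so their values are given side by side only. Where 5 or fewer genes of a list moved one way, they are named, having been picked after their values were seen. Levels are shares of a library's reads, and a lower level in bulk RNA cannot tell fewer cells of a kind from less RNA per cell.

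**Figure D1:**
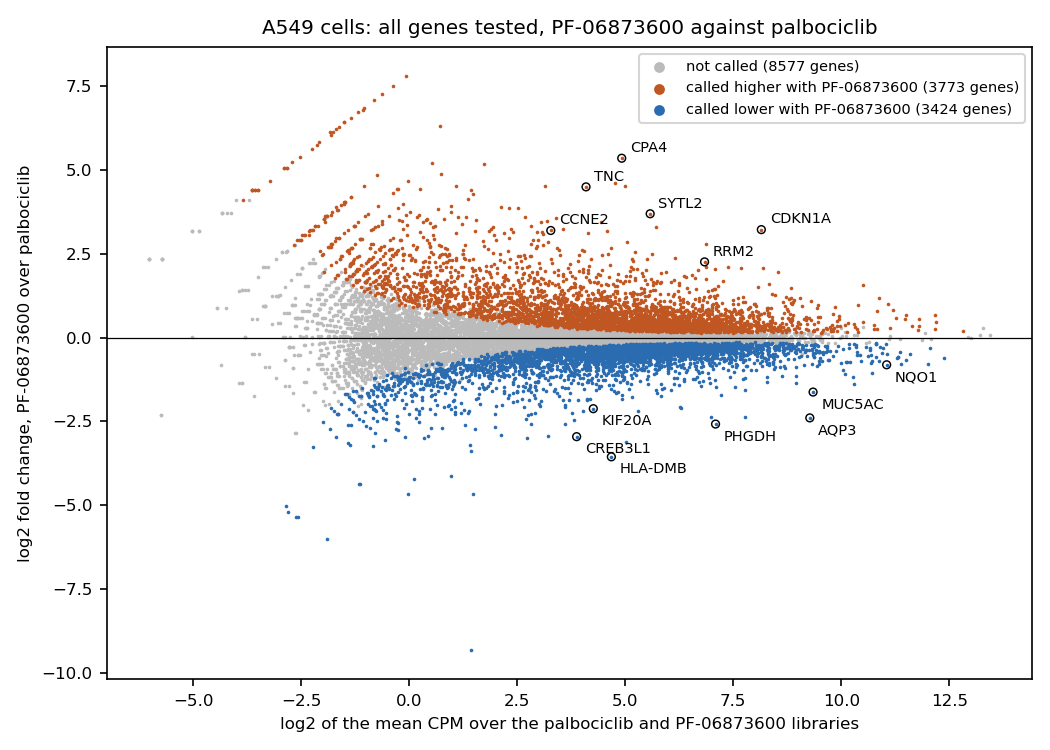
Each point is 1 of the genes tested in A549 cells. The horizontal axis is the log2 of the mean CPM over the 4 libraries and the vertical axis the log2 fold change of PF-06873600 over palbociclib. Orange and blue points are the 3773 genes called higher and 3424 called lower, and named genes are circled. The 6 tested genes at 0 in the 4 libraries are not drawn, and the straight rows of points at the left are genes with few or no reads in 1 group, whose fitted change depends on the prior count.

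The kinases and cyclins that the drugs act on were themselves expressed at different levels. CDK2 was at 29.5 and 28.1 CPM with palbociclib and 52.5 and 50.6 CPM with PF-06873600. The log2 fold change was 0.84 ± 0.08 (edgeR adjusted p = 7.3e-07). Here and for every log2 fold change given with ±, n = 2 libraries per drug and the value is from the edgeR fit. The SE after it is that value's size divided by the square root of the test's F statistic. It rests on a spread estimated over all 10 A549 libraries. Both CDK2 levels with PF-06873600 were also above the 25.9 and 23.8 CPM of untreated cells. CCNE1 and CCNE2 encode the E cyclins, the partners of CDK2. CCNE1 was at 10.3 and 11.3 CPM untreated, 19.5 and 20.8 CPM with palbociclib and 52.1 and 52.3 CPM with PF-06873600 (log2 fold change between the drugs 1.37 ± 0.08). CCNE2 was at 2.38 and 2.67, then 1.56 and 2.20, then 19.1 and 16.01 CPM in the same order, 9.15-fold higher with PF-06873600 than with palbociclib (log2 fold change 3.19 ± 0.21, edgeR adjusted p = 2.5e-08). The 2 E cyclin genes thus had their highest levels in both PF-06873600 libraries. Their levels did not overlap between the drugs, as was the case for 11886 of the 15780 genes tested.

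CCND1, which encodes cyclin D1, was at 429 and 406 CPM in untreated cells, 646 and 638 CPM with palbociclib and 1204 and 1235 CPM with PF-06873600, 0.93 ± 0.05 apart between the drugs on the log2 scale. CDK4 and CDK6 were also higher, by 0.33 ± 0.06 and 0.51 ± 0.09. Their reads, and those of CDK2 and CCNA2, lie where a second gene runs on the opposite strand (TSPAN31, CDK6-AS1, PMEL and EXOSC9), and whether the counting used strand is not stated. CCND2, a second D cyclin, had 0 and 0 counts untreated, 2 and 3 with palbociclib and 19 and 21 with PF-06873600, so its level stayed very low throughout. CDK1, the mitotic kinase, did not pass the test between the drugs: it was at 51.4 and 52.5 CPM with palbociclib and 50.9 and 54.3 CPM with PF-06873600 (log2 fold change 0.02 ± 0.10). CCNA2 (cyclin A2, 0.01 ± 0.11), CCNH (cyclin H of the CDK-activating kinase, -0.03 ± 0.10) and CCND3 (cyclin D3, 0.02 ± 0.05) did not pass it either.

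The CDK inhibitor genes went in opposite directions. CDKN1A was at 39.2 and 43.7 CPM in untreated cells, 56.0 and 54.3 CPM with palbociclib and 504 and 523 CPM with PF-06873600. This was a 9.32-fold difference between the drugs (log2 fold change 3.22 ± 0.06, edgeR adjusted p = 4.2e-13). The gene lies at chr6:36676460-36687337 (forward strand), on GRCh38 like all positions given here, and overlaps DINOL on the other strand. CDKN1B fell from 50.3 and 44.7 CPM with palbociclib to 18.9 and 18.3 CPM with PF-06873600 (log2 fold change -1.35 ± 0.09), and CDKN2C, which encodes the CDK4/6 inhibitor p18, from 43.8 and 40.8 to 14.4 and 12.4 CPM (-1.67 ± 0.11). Both were highest in untreated cells, at 63.3 and 59.2 CPM for CDKN1B and 61.5 and 70.3 CPM for CDKN2C. Over the whole list of CDKs, cyclins and their regulators, 11 of 31 tested genes were higher, 10 were lower and 10 did not pass the test.

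RB1 itself was at 46.2 and 48.4 CPM with palbociclib and 56.2 and 60.9 CPM with PF-06873600 (log2 fold change 0.31 ± 0.09, edgeR adjusted p = 0.013), a call that was lost without palbociclib replicate 1 (0.28) or without PF-06873600 replicate 2 (0.25). Within the E2F family, E2F1 did not pass the test (0.09 ± 0.09), whereas the repressor genes E2F7 (1.62 ± 0.17) and E2F8 (1.61 ± 0.24) were higher with PF-06873600. MYBL2, which encodes B-MYB, was at 28.1 and 27.3 CPM with palbociclib and 83.9 and 86.0 CPM with PF-06873600 (1.62 ± 0.07), and its relative MYBL1 also rose (1.20 ± 0.14). Of the 21 genes of the RB, E2F and MuvB families, 7 were higher and 6 lower, a lower count that became 3 without palbociclib replicate 2. E2F4 (-0.02 ± 0.07) and RBBP4 (-0.12 ± 0.06), the most abundant members without a call, differed little.

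**Figure D2:**
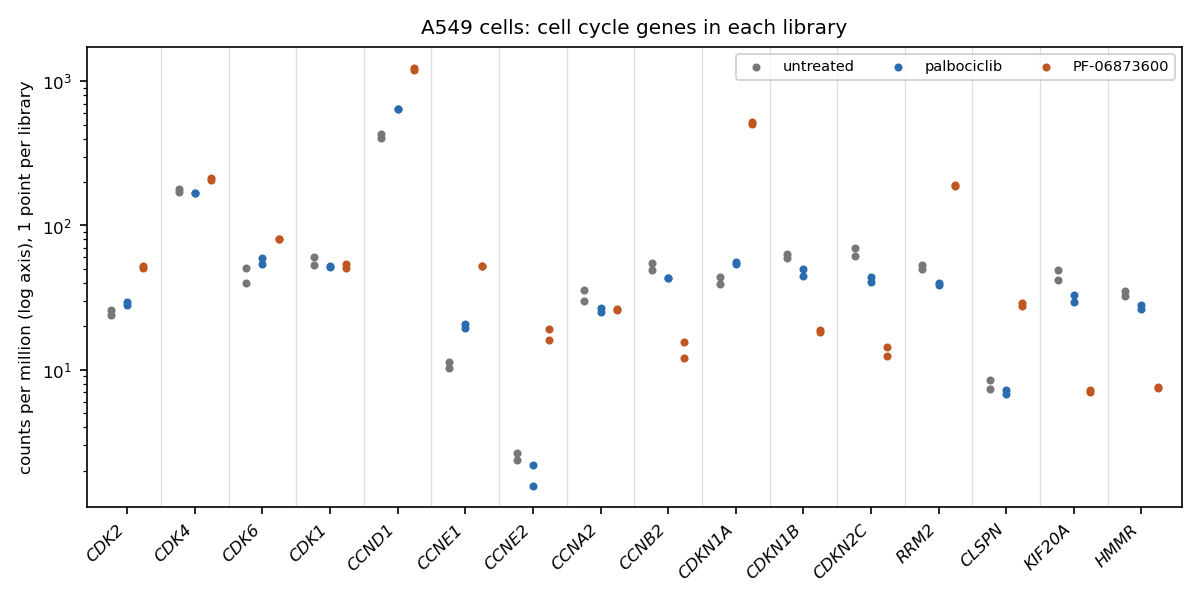
Levels in CPM of 16 cell cycle genes, on a log axis, with 1 point for each untreated (grey), palbociclib (blue) and PF-06873600 (orange) library. CDKN1A, CCNE2, RRM2 and CLSPN are higher in both PF-06873600 libraries than in the other 4, while CCNB2, CDKN1B, CDKN2C, KIF20A and HMMR are lower, and CDK1 and CCNA2 overlap or lie close.

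Genes of DNA synthesis were mostly higher with PF-06873600. Of 54 genes for replication licensing and the replication fork, 35 were higher, 1 was lower and 18 did not pass the test, with a median log2 fold change of 0.32 against -0.01 over all genes tested. The count of higher genes fell to 23 without palbociclib replicate 1, 22 without palbociclib replicate 2 and 21 without PF-06873600 replicate 2. Most of these differences were under 2-fold. CLSPN, which encodes the checkpoint mediator claspin, stood apart: it was at 6.83 and 7.26 CPM with palbociclib and 28.9 and 27.8 CPM with PF-06873600 (log2 fold change 2.00 ± 0.12, edgeR adjusted p = 6.5e-09). CHAF1B, a histone chaperone subunit, rose from 12.8 and 13.1 to 25.8 and 23.4 CPM, POLA2, a subunit of the priming polymerase, from 4.23 and 4.45 to 8.96 and 7.42 CPM, and TIPIN, a fork protection factor, from 7.87 and 8.60 to 15.6 and 14.3 CPM. MCM7 (-0.12 ± 0.06) and TOPBP1 (0.00 ± 0.06) did not pass the test. The single lower gene was RPA3 (-0.59 ± 0.11), the small subunit of the single-strand binding protein. Against untreated cells, 44 of the 54 were higher with PF-06873600 and 26 with palbociclib.

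In nucleotide synthesis, 16 of 28 genes were higher and 2 lower, with a median of 0.31. RRM2, the regulated subunit of ribonucleotide reductase, showed the widest gap: 49.5 and 53.4 CPM untreated, 40.2 and 39.0 CPM with palbociclib and 189.7 and 189 CPM with PF-06873600 (log2 fold change 2.26 ± 0.07, edgeR adjusted p = 8.5e-12). TYMS, which makes thymidylate, was at 51.2 and 48.9 against 110.3 and 111 CPM (1.15 ± 0.08), NME1, a nucleoside diphosphate kinase, at 65.2 and 62.8 against 123 and 121 CPM, and DCTPP1, which clears unwanted nucleotides, at 40.7 and 39.7 against 76.5 and 74.1 CPM. For these 4 genes palbociclib was close to or below the untreated level and PF-06873600 above it. The 2 lower genes were IMPDH2 (-0.32 ± 0.05) and TK1 (-0.28 ± 0.09), and the call of TK1 was lost without palbociclib replicate 1 (-0.29), palbociclib replicate 2 (-0.27) or PF-06873600 replicate 1 (-0.21). In homologous recombination and Fanconi repair, 13 of 36 genes were higher, with EXO1 (0.93 ± 0.14), RBBP8 (0.81 ± 0.09) and BRIP1 (0.76 ± 0.12) in front. The 5 lower ones were FANCM (-0.75 ± 0.12), FANCF (-0.58 ± 0.11), FANCD2 (-0.53 ± 0.13), RMI2 (-0.40 ± 0.09) and MRE11 (-0.29 ± 0.08), and without palbociclib replicate 2 the calls of FANCD2 and MRE11 were lost and the count was 3.

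Replication-dependent histone genes had low levels. These libraries were made from polyadenylated RNA, and most messages of such genes are known to carry no poly(A) tail. Of 63 matched genes, 18 were tested, of which 13 were higher with PF-06873600 and none lower by edgeR, also at an unadjusted p under 0.05 and by DESeq2. A minimum mean of 50 counts left 11768 genes of all kinds in the test, and the higher histone count was then 6. How many histone genes that filter left is not given here, so the smaller count need not mean lost calls. H2BC4 was at 0.965 and 0.915 CPM with palbociclib and 8.42 and 8.16 CPM with PF-06873600 (log2 fold change 3.13 ± 0.24), and H2BC21 was at 3.26 and 4.07 CPM untreated and 1.86 and 2.50 CPM with palbociclib and 2.43 ± 0.18 higher with PF-06873600. With palbociclib H2BC4, too, was under its untreated level of 1.09 and 1.67 CPM. H3C6 (0.18 ± 0.21) and H2AC11 (-0.71 ± 0.38) did not pass the test. Histone genes are near-identical copies, and how reads were shared among them is not stated, so single members are uncertain.

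Genes of mitosis went the other way. Of 78 tested genes of the spindle, the kinetochore and the G2/M transition, 48 were lower with PF-06873600, 8 higher and 22 without a call, with a median log2 fold change of -0.39. KIF20A, a motor protein of cytokinesis, was at 42.0 and 49.3 CPM untreated, 32.9 and 29.5 CPM with palbociclib and 7.27 and 7.05 CPM with PF-06873600 (log2 fold change -2.12 ± 0.12, edgeR adjusted p = 5.4e-09). HMMR, a spindle protein, was at 28.0 and 26.4 against 7.50 and 7.54 CPM with the 2 drugs (-1.85 ± 0.10), and CCNB2, a B cyclin, at 43.1 and 43.1 against 12.1 and 15.6 CPM (-1.62 ± 0.11). ASPM, a spindle pole protein, was highest with palbociclib, at 86.2 and 85.8 CPM against 63.2 and 69.3 CPM untreated, and lowest with PF-06873600, at 29.6 and 29.2 CPM. Proliferation marker MKI67 fell by 0.35 (SE 0.08), from 123 and 107 to 84.5 and 95.8 CPM. BUB3 (-0.12 ± 0.06) and KIF23 (-0.19 ± 0.08) did not pass the test. The 8 higher genes included MELK (0.63 ± 0.08, picked after its value was seen), and their count became 3 without palbociclib replicate 1 or either PF-06873600 replicate or by DESeq2, and 5 without palbociclib replicate 2. Against untreated cells, 49 of the 78 were lower and 11 higher with PF-06873600, and 22 were lower and 10 higher with palbociclib. Thus both drugs gave lower than untreated levels for part of the list, and within the same PF-06873600 libraries genes of replication were mostly raised and genes of mitosis mostly lowered.

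Promoter sequences were read for the members that these 2 groups turn on, because genes of the mitotic wave are known for the CHR element (TTTGAA) together with CCAAT boxes, and genes of replication for E2F sites. RefSeq promoter windows (GRCh38.p14, from 250 bases before to 50 bases after a start) were searched on both strands for TTTGAA, for CCAAT and for the 5 E2F spellings TTTCCCGC, TTTGGCGC, TTTCGCGC, TTTGCCGC and TTCCCGCC. The 120 bases before the start are printed 5′ to 3′ on the gene's strand, with the letters found in capitals. The first 3 are mitotic genes that were lower with PF-06873600: CCNB2 at chr15:59105026-59105145 (forward strand), HMMR at chr5:163460512-163460631 (forward strand) and ASPM at chr1:197146670-197146789 (reverse strand). In them the capitals mark TTTGAA and CCAAT or their reverse complements, and in HMMR a pair of CCAAT matches on opposite strands overlaps.
CCNB2: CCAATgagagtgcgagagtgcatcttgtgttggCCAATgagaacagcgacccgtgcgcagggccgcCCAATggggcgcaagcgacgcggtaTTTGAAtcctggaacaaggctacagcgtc
HMMR: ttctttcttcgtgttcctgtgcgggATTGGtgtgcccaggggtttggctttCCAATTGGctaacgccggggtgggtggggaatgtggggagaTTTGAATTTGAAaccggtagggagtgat
ASPM: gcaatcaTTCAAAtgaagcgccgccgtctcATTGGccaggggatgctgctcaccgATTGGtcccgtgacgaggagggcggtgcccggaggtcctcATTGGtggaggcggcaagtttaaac
The next 3 are genes of DNA synthesis that were higher: POLA2 at chr11:65261842-65261961 (forward strand), TIPIN at chr15:66356686-66356805 (reverse strand) and TYMS at chr18:657533-657652 (forward strand). In them the capitals mark the E2F spellings, which in TIPIN occur on both strands and overlap.
POLA2: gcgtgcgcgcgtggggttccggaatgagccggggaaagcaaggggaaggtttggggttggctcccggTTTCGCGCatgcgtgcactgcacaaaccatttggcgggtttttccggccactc
TIPIN: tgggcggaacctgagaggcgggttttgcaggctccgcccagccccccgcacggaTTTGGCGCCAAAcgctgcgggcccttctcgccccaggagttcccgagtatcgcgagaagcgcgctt
TYMS: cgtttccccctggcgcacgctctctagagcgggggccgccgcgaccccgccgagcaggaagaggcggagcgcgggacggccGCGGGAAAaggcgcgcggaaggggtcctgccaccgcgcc
Of all 16794 promoter windows of tested genes, 10.8% held TTTGAA, 34.4% held CCAAT and 7.88% held an E2F spelling. Among the 1173 windows of genes called at least 2-fold higher, the shares were 12.7%, 28.6% and 6.14% in the same order. Among the 547 windows of genes called at least 2-fold lower, they were 15.2%, 37.7% and 4.57%. The shares that follow are thus those of the 2 gene groups and not of called genes at large. Among the 50 windows of mitotic genes called lower the shares were 66% with TTTGAA, 70% with CCAAT and 6% with an E2F spelling, and among the 36 windows of replication genes called higher they were 0% with TTTGAA, 58.3% with CCAAT and 55.6% with an E2F spelling. Members without the call held the letters too: mitotic genes not called lower had TTTGAA in 51.9% of 27 windows, and replication genes not called higher had an E2F spelling in 38.1% of 21. The printed stretches all hold such letters, which not every called member does. In the same 120 bases CHAF1B held none of them, and CLSPN held CCAAT but no E2F spelling. A window of CDK1 held TTTGAA and CCAAT, and that of E2F1 held E2F spellings, though neither gene passed the test. Matches are letters in a window and not shown binding sites.

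Targets of p53 had the largest share of higher genes among the lists counted. The lists were chosen with earlier results of these data known, so the ranking only describes them. Of 36 tested, 33 were higher with PF-06873600, 1 was lower and 2 did not pass the test, with a median log2 fold change of 1.19. The count of higher genes stayed at 33 with any 1 library left out. Besides CDKN1A, TRIM22, an antiviral E3 ligase, was at 2.04 and 3.13 CPM untreated, 4.97 and 4.52 CPM with palbociclib and 45.3 and 41.2 CPM with PF-06873600 (log2 fold change 3.19 ± 0.14, edgeR adjusted p = 3.2e-10). SPATA18, a factor of mitochondrial quality control, rose from 4.82 and 4.64 to 30.1 and 27.0 CPM (2.59 ± 0.12), and FAS, a death receptor, from 10.5 and 12.9 to 59.2 and 61.0 CPM (2.35 ± 0.10). For each of these 3 genes both PF-06873600 libraries lay several times above the palbociclib libraries. FAS was at 6.93 and 8.40 CPM and SPATA18 at 4.28 and 4.27 CPM in untreated cells. PMAIP1 (-0.23 ± 0.09) and FUCA1 (-0.02 ± 0.09) did not pass the test. The lower gene was CCNG1 (-0.17 ± 0.06), whose call was lost without any 1 of the 4 libraries (-0.15 to -0.18). Against untreated cells, 33 of the 36 targets were higher with PF-06873600 and 8 with palbociclib. TRIM22 overlaps TRIM5 on the other strand, and FAS overlaps ACTA2.

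Among members of the BCL2 family of apoptosis regulators, which share BAX and BBC3 with the p53 list, 6 of 15 were higher and 1, BMF (-1.40 ± 0.54), was lower, a call lost without palbociclib replicate 1 or either PF-06873600 replicate. BAX was at 72.4 and 77.1 CPM with palbociclib and 177 and 173 CPM with PF-06873600 (1.23 ± 0.07), and BBC3 at 10.7 and 9.95 against 20.2 and 18.7 CPM (0.91 ± 0.15). The protective gene BCL2 was also called higher, at a low level of 0.445 and 0.183 against 1.30 and 0.866 CPM (1.79 ± 0.66). That call was lost without palbociclib replicate 2 (1.24), PF-06873600 replicate 1 (1.49) or PF-06873600 replicate 2 (2.08). The replicate block and DESeq2 lost it too. The abundant protective genes BCL2L1 (0.03 ± 0.05) and MCL1 (-0.02 ± 0.05) did not pass the test. Among proteins of the nuclear lamina and chromatin that are followed in senescence, 6 of 20 were higher and 7 lower. LMNB1 (lamin B1) did not pass the test between the drugs (-0.07 ± 0.09), at 48.3 and 47.7 CPM untreated, 38.4 and 34.6 CPM with palbociclib and 36.9 and 32.9 CPM with PF-06873600. LBR, the lamin B receptor, fell from 141 and 142 to 70.1 and 65.8 CPM (-1.06 ± 0.07) and HMGB2 from 39.2 and 35.9 to 19.1 and 17.5 CPM (-1.04 ± 0.10), while UHRF1, a maintenance factor of DNA methylation, rose from 11.6 and 12.7 to 32.5 and 28.1 CPM (1.31 ± 0.11).

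**Figure D3:**
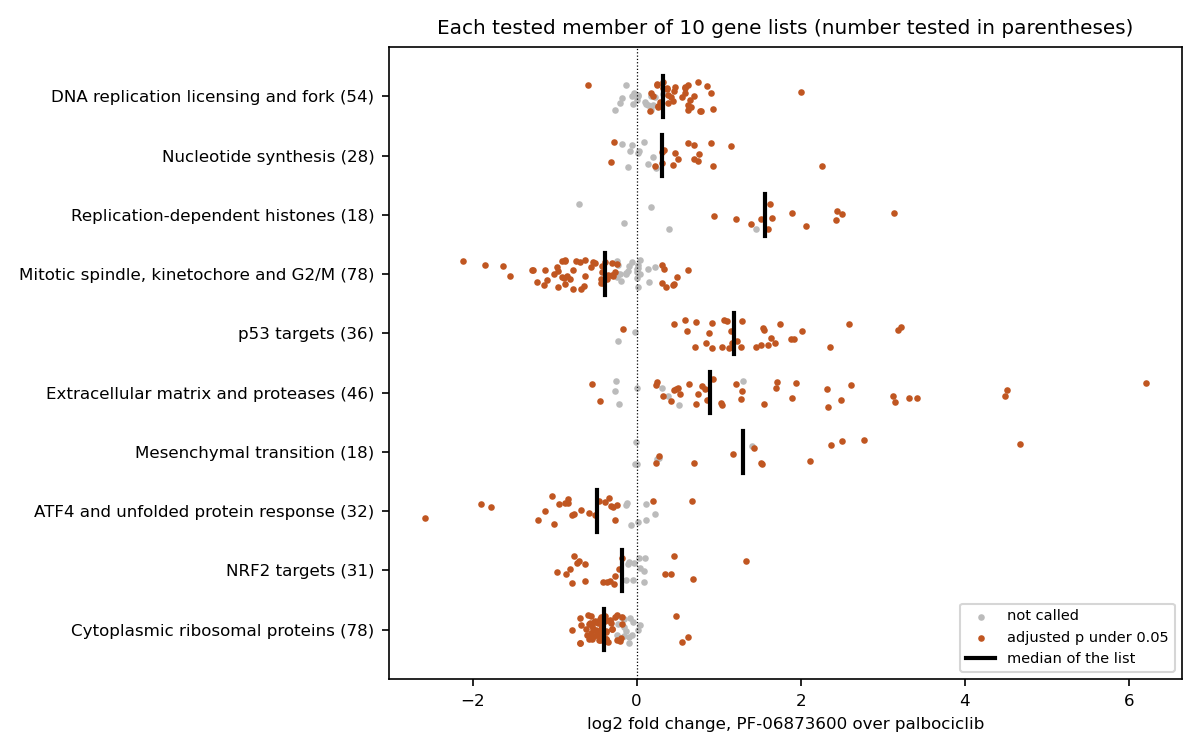
Log2 fold change of PF-06873600 over palbociclib for each tested gene of 10 lists, with called genes in orange, other genes in grey and the list's median as a black bar. The p53 targets, histones and matrix genes lie mostly to the right of 0, the mitotic, ATF4 and ribosomal protein genes mostly to the left. The matrix gene farthest to the right, COL13A1, had no reads in the palbociclib libraries, so its fitted value is no measure of size.

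Among genes whose higher group averaged 10 CPM or more, CPA4 was among the 12 raised furthest. This secreted carboxypeptidase at chr7:130293134-130324180 (forward strand) was at 1.56 and 1.34 CPM with palbociclib and 61.4 and 56.9 CPM with PF-06873600, 40.8-fold apart (log2 fold change 5.35 ± 0.16, edgeR adjusted p = 8.5e-12). TNC, the matrix protein tenascin C, was lower with palbociclib than in untreated cells (1.56 and 1.34 against 4.49 and 4.33 CPM) and higher with PF-06873600 (34.2 and 31.2 CPM, 4.50 ± 0.14 between the drugs). TFF1, a trefoil peptide, had the same order: 5.44 and 5.47 CPM untreated, 1.41 and 1.34 CPM with palbociclib and 13.9 and 16.3 CPM with PF-06873600. So did KCNMA1, a potassium channel, at 7.20 and 8.27, then 3.93 and 3.36, then 40.2 and 39.5 CPM. Also among the 12 raised furthest were TRIML2 (4.60 ± 0.13), the ubiquitin ligase gene MARCHF4 (4.51 ± 0.19), the elastase inhibitor PI3 (3.86 ± 0.27), SYTL2 of vesicle traffic (3.69 ± 0.08), KIAA1549L (3.58 ± 0.22), the dehydrogenase DHRS9 (3.56 ± 0.16) and the adhesion protein NECTIN4 (3.48 ± 0.16).

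Most matrix genes were higher. Of 46 tested genes for extracellular matrix, matrix proteases and their inhibitors, 36 were higher with PF-06873600 and 2 lower, with a median log2 fold change of 0.90. TIMP3, an inhibitor of matrix proteases, had 3 and 4 counts with palbociclib and 31 and 45 with PF-06873600, and COL13A1 had 0 and 0 against 8 and 10, both far below TNC in level. The laminin genes LAMA5 (0.01 ± 0.18) and LAMB2 (-0.27 ± 0.11) did not pass the test. The 2 lower genes were COL4A3 (-0.55 ± 0.16) and LAMB1 (-0.44 ± 0.05), and the call of COL4A3 was lost without palbociclib replicate 2 (-0.30) or PF-06873600 replicate 2 (-0.38). Against untreated cells, 36 of the 46 were higher with PF-06873600 and 15 with palbociclib.

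Among genes of mesenchymal transition, 12 of 18 were higher and none lower by edgeR, also at an unadjusted p under 0.05 and by DESeq2, with a median of 1.29. LOXL2, a collagen cross-linking enzyme, was at 14.3 and 12.1 CPM untreated, 24.2 and 22.2 CPM with palbociclib and 115 and 124 CPM with PF-06873600 (2.37 ± 0.08), and MYL9, a myosin light chain, was at 1.48 and 1.10 against 6.81 and 7.67 CPM (2.51 ± 0.20). CDH11 had 1 and 1 counts with palbociclib and 24 and 32 with PF-06873600, and the transcription factor gene SNAI2 3 and 5 against 22 and 33. The abundant S100A4 (-0.01 ± 0.06) and CDH2 (N-cadherin, 0.00 ± 0.07) did not pass the test. Of 25 epithelial junction and keratin genes, 11 were higher and 7 lower. KRT80 rose from 76.8 and 81.2 to 325 and 339.6 CPM (2.07 ± 0.07), while the tight junction genes TJP3 (-2.02 ± 0.19) and CLDN7 (-1.45 ± 0.30) fell. Among 19 YAP and TEAD targets, genes known to follow cell tension and spreading, 10 were higher and none lower by edgeR, with 1 lower at an unadjusted p under 0.05 and 0 by DESeq2. ANKRD1 was at 4.30 and 4.94 against 26.4 and 25.5 CPM (2.48 ± 0.12) and CCN1 rose too (1.16 ± 0.09), whereas YAP1 itself did not pass the test (0.05 ± 0.07).

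Secreted factors were examined because senescent cells are known to release them. Of 22 tested cytokines and chemokines, 10 were higher, a count that became 6 without PF-06873600 replicate 1. The 4 lower ones were TNFSF15 (-1.65 ± 0.08), IL15 (-0.87 ± 0.14), TNFSF10 (-0.44 ± 0.09) and CSF1 (-0.40 ± 0.06). IL6 was at 0.544 and 0.533 CPM untreated, 2.52 and 1.89 CPM with palbociclib and 6.97 and 6.37 CPM with PF-06873600 (1.60 ± 0.20 between the drugs), and CCL2 at 0.612 and 0.867, then 2.00 and 2.32, then 15.1 and 14.8 CPM (2.77 ± 0.15). Their levels thus stepped up from untreated to palbociclib to PF-06873600. IL32 was at 0.297 and 0.427 against 4.98 and 4.20 CPM with the 2 drugs (3.60 ± 0.30) and CXCL6 at 1.04 and 0.915 against 6.13 and 6.06 CPM (2.64 ± 0.22). CXCL5, an abundant chemokine gene, was already higher with palbociclib, at 483 and 479 against 215 and 251 CPM untreated, and did not pass the test between the drugs (515 and 509 CPM with PF-06873600). Of 36 growth factors, receptors and IGF binding proteins, 25 were higher and 6 lower. PDGFB, a platelet-derived growth factor chain, was higher with 1 and 2 counts in the palbociclib libraries and 23 and 27 in the PF-06873600 libraries. Among genes with more than 3 counts in each of these libraries, ANGPTL4 (2.35 ± 0.17), BMP2 (1.82 ± 0.19) and IGFBP7 (1.82 ± 0.11) rose furthest, and the abundant ERBB2 (-0.08 ± 0.07) and VEGFA (0.17 ± 0.10) did not pass the test.

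The 5 senescence gene lists that the study used were counted in the same way. The study applied them to these libraries, so they are no independent evidence of a direction. In the secretory list named after Hernandez, 15 of 21 tested genes were higher with PF-06873600 than with palbociclib and none lower by edgeR, also at an unadjusted p under 0.05 and by DESeq2 (median 0.72). CCL2, IGFBP7 and IL6, given above, are members. In the list named after Purcell, 20 of 34 were higher, among them COL17A1, a collagen of epithelial anchoring, at 1.41 and 1.16 CPM with palbociclib and 13.2 and 12.5 CPM with PF-06873600 (3.32 ± 0.17), and APOL1 at 42.9 and 45.9 against 152 and 152 CPM (1.78 ± 0.07). The 3 lower genes there were ISG20 (-0.97 ± 0.14), DUSP6 (-0.56 ± 0.07) and GCA (-0.55 ± 0.15), the last a call lost without PF-06873600 replicate 2 (-0.54). In the list after Casella, 22 of 41 were higher and 7 lower, or 3 lower without PF-06873600 replicate 1 and 4 without PF-06873600 replicate 2. Its member JCAD was at 0.476 and 0.667 CPM untreated, 5.19 and 4.58 CPM with palbociclib and 20.5 and 20.9 CPM with PF-06873600 (2.09 ± 0.13), and TMEM59 (-0.09 ± 0.07) did not pass the test. In the senescence list after Hernandez, 15 of 31 were higher, among them DGKA (1.36 ± 0.11), CCND1, given above, and SLC16A3 (0.89 ± 0.09). Its 2 lower genes were TSPAN13 (-0.55 ± 0.08) and POFUT2 (-0.40 ± 0.12), the latter a call lost without palbociclib replicate 2 (-0.28), PF-06873600 replicate 1 (-0.41) or PF-06873600 replicate 2 (-0.39). In the list after Fridman, 41 of 71 were higher and 9 lower, or 5 lower with either PF-06873600 replicate left out, and ALDH1A3 joined CDKN1A and IGFBP7 near its head (2.55 ± 0.38). Its abundant member SOD1 (-0.03 ± 0.07) did not pass the test. Against untreated cells the Hernandez secretory list had 19 of 21 higher with PF-06873600 and 14 with palbociclib.

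Inflammatory and antigen presentation genes were higher in part. Of 18 NF-kB subunits and feedback genes, 9 were higher and 2 lower, and the lower count became 4 without palbociclib replicate 1. TNFAIP3 (1.19 ± 0.19), RELB (0.85 ± 0.13) and BIRC3 (0.75 ± 0.08) were higher and NFKBIA, the inhibitor of NF-kB (-0.54 ± 0.07), and IER3 (-0.39 ± 0.07) were lower, while NFKB1 did not pass the test (-0.02 ± 0.07). Of 43 interferon-stimulated genes, 20 were higher and 5 lower. SAMD9L was at 6.31 and 8.12 CPM with palbociclib and 28.2 and 27.7 CPM with PF-06873600 (1.94 ± 0.11), ISG15 at 2.23 and 2.44 against 7.04 and 6.74 CPM (1.55 ± 0.20), and IFITM1 went down from 4.38 and 3.29 to 0.842 and 0.742 CPM (-2.26 ± 0.32). The other lower genes were its neighbours in the family IFITM2 (-1.27 ± 0.10) and IFITM3 (-0.34 ± 0.07), whose copies are alike and so uncertain, ISG20, and STAT2 (-0.30 ± 0.11), the last a call lost without palbociclib replicate 2 (-0.19), PF-06873600 replicate 1 (-0.30) or PF-06873600 replicate 2 (-0.30). In HLA class I presentation, 9 of 18 genes were higher, among them the peptide transporters TAP1 (1.00 ± 0.08) and TAP2 (0.80 ± 0.11), and HLA-E (-0.31 ± 0.06) and PDIA3 (-0.23 ± 0.06) were lower, the latter a call lost without palbociclib replicate 1 (-0.19) or PF-06873600 replicate 1 (-0.21). B2M, the light chain, did not pass the test (0.13 ± 0.07).

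Turning to genes that fell, HLA-DMB showed the largest decrease among genes of at least 10 CPM. It encodes a chain of the chaperone that loads peptides on HLA class II and lies at chr6:32934629-32941028 (reverse strand). Its level was 118 and 126 CPM in untreated cells, 48.5 and 46.1 CPM with palbociclib and 3.98 and 4.02 CPM with PF-06873600, 11.8-fold lower than with palbociclib (log2 fold change -3.56 ± 0.10, edgeR adjusted p = 8.5e-12). The drop was thus stepwise across the 3 groups. GPRC6A, an amino acid sensing receptor, was alike in untreated cells (61.4 and 82.7 CPM) and with palbociclib (60.3 and 56.9 CPM) and was at 6.13 and 7.17 CPM with PF-06873600 (-3.13 ± 0.15). CREB3L1, a membrane-bound transcription factor of the endoplasmic reticulum, was at 70.6 and 58.7, then 25.9 and 26.2, then 3.14 and 3.52 CPM (-2.96 ± 0.14). AQP3, a water and glycerol channel, was the most abundant of the group, at 884 and 822 CPM untreated, 1053 and 1028 CPM with palbociclib and 196 and 199 CPM with PF-06873600 (-2.40 ± 0.06). FCGBP, a protein of mucus, was at 984 and 695, then 424 and 309, then 65.3 and 74.8 CPM (-2.38 ± 0.16), with the untreated and the palbociclib pairs each well apart. Also among the 12 that fell furthest were C9orf152 (-2.99 ± 0.17), PLPPR1 (-2.94 ± 0.19), NCMAP (-2.59 ± 0.20), PHGDH, UNC13A of vesicle priming (-2.47 ± 0.13) and AQP5-AS1 (-2.43 ± 0.20), an antisense RNA that overlaps AQP5.

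Mucin genes of the airway fell along with FCGBP. MUC5AC was at 3693 and 2576 CPM untreated, 999 and 973 CPM with palbociclib and 312 and 326 CPM with PF-06873600 (-1.63 ± 0.13), and MUC5B at 3621 and 2488, then 1900.2 and 1731, then 665 and 732 CPM (-1.38 ± 0.12). The untreated libraries again differed from each other by more than the treated pairs. Of 13 tested lung and alveolar genes, 6 were lower and 3 higher. The higher ones were CAV1 (caveolin 1, 0.80 ± 0.06), LPCAT1 (0.65 ± 0.05) and ABCA3 (0.22 ± 0.08), the last a call lost without palbociclib replicate 2 (0.14), PF-06873600 replicate 1 (0.26) or PF-06873600 replicate 2 (0.17). GATA6 (0.31 ± 0.19) did not pass the test.

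**Figure D4:**
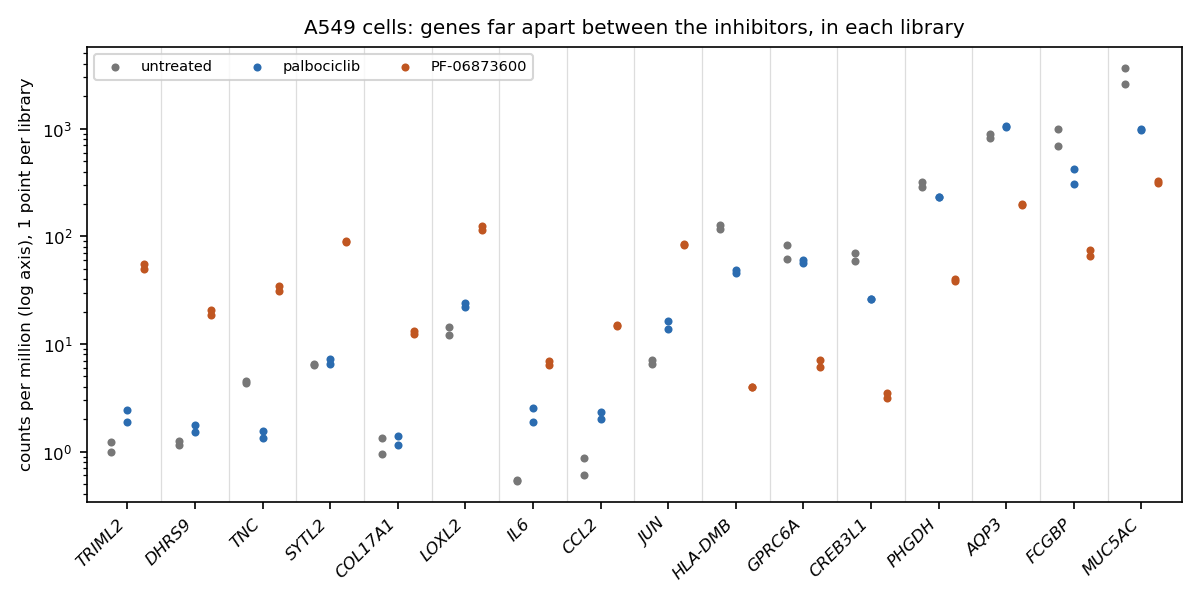
Levels in CPM of 16 genes with wide gaps between the drugs, on a log axis, with 1 point for each untreated (grey), palbociclib (blue) and PF-06873600 (orange) library. The first 9 genes are highest in the PF-06873600 libraries and the last 7 lowest, with the 2 libraries of a group close together except for FCGBP, the untreated libraries of MUC5AC and some low genes.

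Genes of serine synthesis and of the amino acid response, which ATF4 is known to drive, were lower with PF-06873600. Of 32 tested genes of ATF4 and the unfolded protein response, 23 were lower and 2 higher, with a median log2 fold change of -0.48. PHGDH, the first enzyme of serine synthesis, at chr1:119648411-119744218 (forward strand), was at 319 and 289 CPM untreated, 234 and 234 CPM with palbociclib and 40.0 and 38.2 CPM with PF-06873600 (-2.58 ± 0.07, edgeR adjusted p = 5.5e-12). PSAT1, the next enzyme, was at 309.9 and 298 against 133 and 131 CPM with the 2 drugs (-1.20 ± 0.06), and NUPR1, a stress-induced regulator, at 57.3 and 53.5 against 16.1 and 16.3 CPM (-1.77 ± 0.08). ASNS, asparagine synthetase, was low throughout, at 2.89 and 3.48 against 1.07 and 0.680 CPM (-1.89 ± 0.35). The chaperone PDIA6 (-0.12 ± 0.06) and the transporter subunit SLC3A2 (-0.06 ± 0.08) did not pass the test. The 2 higher genes were ATF3 (0.67 ± 0.13) and SLC7A5 (0.20 ± 0.06), and the call of SLC7A5 was lost without palbociclib replicate 2 (0.17), PF-06873600 replicate 1 (0.21) or PF-06873600 replicate 2 (0.18).

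Cytoplasmic ribosomal protein genes were lower by a small amount. Of 78 tested, 61 were lower and 3 higher, with a median of -0.40 and the lowest at -0.78. RPL13A went from 3452 and 3316 CPM with palbociclib to 1947 and 1984 CPM with PF-06873600 (-0.78 ± 0.06), RPL3 from 1753 and 1737 to 1061 and 1093 CPM (-0.70 ± 0.06) and RPL5 from 921 and 838 to 551 and 540.1 CPM (-0.69 ± 0.07). With palbociclib RPL13A and RPL3 were near their untreated levels of 3347 and 3655 CPM for RPL13A and 1692 and 1722 CPM for RPL3. RPS19 (-0.15 ± 0.06) and RPL24 (-0.16 ± 0.08) did not pass the test. The 3 higher genes included RPS26 (0.48 ± 0.07) and RPL17 (0.63 ± 0.15). Ribosomal protein genes have many processed copies, so reads may have been shared with or lost to them. In a list that joins genes of ribosome assembly with MYC and its partners, 18 of 32 were higher and 2 lower. The lower ones were FBL (-0.42 ± 0.05), of ribosomal RNA methylation, and the MYC antagonist MXI1 (-0.31 ± 0.10), the latter a call lost without palbociclib replicate 2 (-0.28), PF-06873600 replicate 1 (-0.29) or PF-06873600 replicate 2 (-0.33). BOP1 was at 80.6 and 87.4 against 149.9 and 149 CPM (0.83 ± 0.10) and NOP56 at 158 and 166 against 239 and 242 CPM (0.57 ± 0.06), while the abundant NPM1 (-0.16 ± 0.07) and NCL (0.10 ± 0.05) did not pass the test.

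Targets of NRF2, which A549 is known to express at high levels because its inhibitor KEAP1 is mutated, were lower in part. Of 31 tested, 16 were lower and 5 higher. NQO1, a quinone reductase, was at 3356 and 3578 CPM untreated, 2749 and 2665 CPM with palbociclib and 1526 and 1555 CPM with PF-06873600 (-0.81 ± 0.05). The drug exporter ABCC3 (-0.97 ± 0.09) and the cystine carrier SLC7A11 (-0.86 ± 0.07) also fell, HMOX1, heme oxygenase, rose from 17.4 and 14.8 to 41.5 and 39.4 CPM (1.33 ± 0.10), and CBR3 (0.69 ± 0.18), OSGIN1 (0.45 ± 0.13), AKR1B1 (0.42 ± 0.05) and TXNRD1 (0.35 ± 0.06) were the other 4 higher. The call of CBR3 was lost without palbociclib replicate 2 (0.51) or PF-06873600 replicate 1 (0.57) and that of OSGIN1 was lost without PF-06873600 replicate 2 (0.42). The most abundant genes of the list without a call were ALDH3A1 (0.09 ± 0.07) and FTL (-0.03 ± 0.05). Of 24 genes of cholesterol synthesis and uptake, 11 were lower and 3 higher. INSIG1, a sensor protein of sterol control (-1.09 ± 0.10), and STARD4, a sterol carrier (-0.97 ± 0.13), were among the lower genes. NSDHL (0.36 ± 0.08), DHCR7 (0.34 ± 0.07) and HMGCS1 (0.20 ± 0.07) were higher, the last a call lost without palbociclib replicate 1 (0.15), PF-06873600 replicate 1 (0.19) or PF-06873600 replicate 2 (0.22), and FDPS (0.15 ± 0.07) and SQLE (0.04 ± 0.06) did not pass the test.

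Of 30 genes of glycolysis and hypoxia, 19 were higher, while CA12 (-0.50 ± 0.05) and NDRG1 (-0.45 ± 0.06) were lower. PFKP, a phosphofructokinase, was at 275 and 272 CPM with palbociclib and 607 and 606 CPM with PF-06873600 (1.15 ± 0.07), ENO2 at 58.8 and 74.2 against 143 and 142 CPM (1.09 ± 0.10) and ADM, adrenomedullin, at 6.38 and 6.83 against 30.3 and 28.3 CPM (2.14 ± 0.11), whereas TPI1 (0.12 ± 0.05) did not pass the test. Of 43 lysosomal genes, 19 were higher and 2 lower: SCARB2 (-0.32 ± 0.06) and MANBA (-0.30 ± 0.07), the latter a call lost by DESeq2. NPC1, the cholesterol exporter of lysosomes, was at 34.7 and 32.3 against 63.8 and 62.6 CPM (0.92 ± 0.07). The abundant CD63 had no call (0.04 ± 0.06). Immediate early and MAPK feedback genes divided: 8 of 25 were higher and 12 lower. The AP-1 subunit genes JUN (7.14 and 6.53 CPM untreated, 16.3 and 13.7 with palbociclib, 85.6 and 82.4 with PF-06873600, 2.50 ± 0.09) and FOSL1 (2.28 ± 0.10) were higher and the ETS factor gene ETV4 (188 and 173, then 123 and 131, then 29.0 and 29.9 CPM, -2.11 ± 0.07) was lower. DUSP4 (-0.08 ± 0.05) did not pass the test. Of 13 mitochondrially encoded genes, 2, MT-ND1 (0.56 ± 0.12) and MT-ND5 (0.34 ± 0.12), were higher and none lower by edgeR, also at an unadjusted p under 0.05 and by DESeq2. The higher count was 7 without palbociclib replicate 2 and 1 without palbociclib replicate 1 or PF-06873600 replicate 1. MT-CO1 was at 6549.5 and 9073 CPM in the palbociclib pair, so that pair itself differed in these genes. Among 8 ABC transporters, ABCB1, the multidrug pump, was higher (1.01 ± 0.09), at 11.4 and 12.1 CPM untreated, 21.6 and 26.2 CPM with palbociclib and 48.6 and 48.1 CPM with PF-06873600. ABCC5 was higher (0.43 ± 0.11), a call lost without palbociclib replicate 1 (0.29) or PF-06873600 replicate 1 (0.38), and ABCC3 lower.

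**Figure D5:**
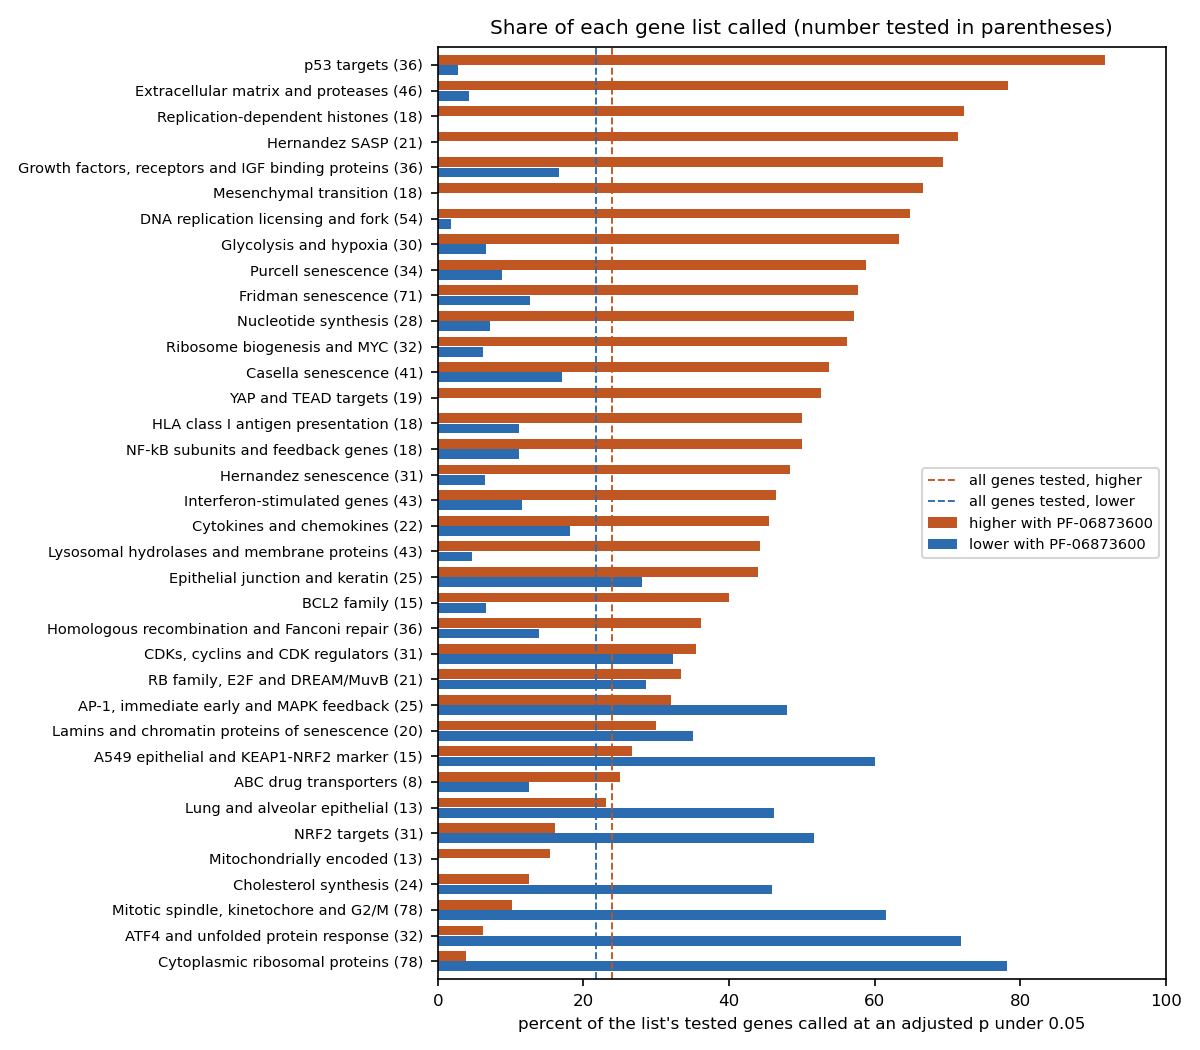
Share of the tested genes of 36 lists that were called higher (orange bars) or lower (blue bars) with PF-06873600 than with palbociclib, in percent, beside the shares over all genes tested (dashed lines, 23.9% and 21.7%). The p53 targets have the largest share higher and the ribosomal protein genes the largest share lower, among lists chosen with earlier results known.

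Markers of other cell types were low but not all near 0. Fibroblast markers summed to 2.11 and 2.20 CPM untreated, 4.53 and 4.70 CPM with palbociclib and 12.4 and 10.4 CPM with PF-06873600, with 5 of 9 at 3 counts or fewer in each library. Most of the sum with PF-06873600 came from COL1A1, at 9.72 and 8.10 CPM. Of the 3 tested, COL1A1 (1.21 ± 0.14) and THY1 (2.67 ± 0.44) were higher with PF-06873600 and LUM did not pass the test. Leukocyte markers summed to 8.97 and 7.53 CPM, 9.80 and 8.91 CPM and 14.2 and 14.3 CPM in the same order, with CD3E, CD3D and MS4A1 among those at 0 and 5 of 9 at 3 counts or fewer in each library. Most of that sum with PF-06873600 came from CD14, at 6.74 and 6.86 CPM, and LYZ, at 4.90 and 4.20 CPM. Of their 3 tested genes, ITGAM (1.66 ± 0.43) and LYZ (0.63 ± 0.24) were higher, the latter a call lost without palbociclib replicate 1 (0.75), palbociclib replicate 2 (0.50), PF-06873600 replicate 1 (0.52) or PF-06873600 replicate 2 (0.74), and CD14 did not pass the test. Of 7 endothelial markers only PECAM1 was tested and it was lower (-1.71 ± 0.43), a call lost without PF-06873600 replicate 2 (-1.30). Fibroblast markers moved with the matrix and mesenchymal lists, COL1A1 being a member of the matrix list too, and their part in those results was not tested. Of the A549 markers, 9 of 15 were lower, and the keratin genes KRT8 (0.68 ± 0.07), KRT18 (0.46 ± 0.06) and KRT19 and the reductase gene TXNRD1 were higher, with KRT19 at 257 and 255 against 594 and 593 CPM (1.21 ± 0.08) and AKR1C2 at 1249 and 1339 against 769.9 and 753 CPM (-0.76 ± 0.06).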

How the data were processed

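RNA was sequenced as single reads from strand-specific libraries of polyadenylated RNA, and per the labels the reads were placed on hg38. The submitters' processing notes name HISAT2 2.2.1 and HTSeq, while the annotation release and the use of strand in counting are not given in the sources used here. The authors deposited whole-number read counts per Ensembl gene for each library. Rows that name a gene were used and scaled to CPM by their total, and the closing summary rows of each file were left out. Symbols, types and positions came from GENCODE 44, which named 60370 of 60683 identifiers.

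The 10 A549 libraries were fitted in 1 model by group (edgeR 4.0.16, R 4.3.3, total counts as library size, default filter on low counts), and the Benjamini-Hochberg adjustment ran over all genes tested. The other A549 treatments entered the fit alone, and the libraries of the second cell line were not used here. Alternatives were TMM scaling, DESeq2 1.42.0, no filter, a mean of at least 50 counts, a model of the compared groups, the replicate number as a block and each library left out, and a crossed pairing was added after seeing the data. In simulated counts for this comparison, run on 15254 genes with 200 changed, 96% of the genes changed at least 2-fold and 74% of those changed 1.5-fold were recovered. Of the calls, 5.24% were false. The changed genes were drawn from those above a minimum count, and genes of like level were given the same spread. Far fewer genes were changed than were called in the data, so these rates may be optimistic. A p-value from 2 libraries a group covers only the spread between them, and floors cover counting error only.

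Gene lists and members were chosen with earlier results of these data known. The genes named were 15 cell cycle genes, the 12 with the largest change each way among called genes whose higher group averaged 10 CPM or more, and in each list up to 4 called genes with the largest change and up to 2 abundant ones without a call. Of 237 genes named by this rule, 121 overlap a gene on the opposite strand. Promoter windows came from RefSeq (GRCh38.p14). Figures were drawn with matplotlib 3.10.9. A few genes that the rule names are not reported here.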

Additional observations from a re-analysis of the deposited data

How the results depend on the processing

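The calls between the drugs kept their order of size: higher and lower genes numbered 3773 and 3402 with TMM scaling, 3867 and 3489 without a filter, 3136 and 3107 with a mean of at least 50 counts, 4032 and 3824 with the 4 compared libraries alone, and 2976 and 2462 by DESeq2. With TMM scaling, 7135 of the 7197 calls were kept with their direction, whereas DESeq2 kept 5435 of them. With 1 library left out, 5287 to 5913 genes were called in all, in a fit where the single library of a group is assumed to vary like the other groups. TMM moved the median of all genes by 0.0003 on the log2 scale. For palbociclib against untreated cells, the higher and lower counts of 1310 and 1168 became 543 and 406 in a model of the compared groups, the lower count was 617 by DESeq2, and without 1 palbociclib library they were 779 to 816 and 522 to 656, against up to 1729 and 1602 without 1 untreated library. The cause was not tested. No named gene with a call reversed its direction. By DESeq2, 16 single genes lost their call, among them BMF, CCNG1, GCA, HMGCS1, LYZ, MANBA, MRE11, MT-ND5, MXI1, PECAM1 and STAT2. Of 3098 values for single genes under the alternatives, 2964 stayed on their side of the threshold, 87 lost and 47 gained a call. Of 856 list counts, 71 moved by over 1.5 times, 47 of them with 1 library left out.

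The labels number the libraries 1 and 2 in each group. Deviations of equally numbered libraries correlated at -0.07 between the drugs, 0.04 between PF-06873600 and untreated cells and -0.22 between palbociclib and untreated cells. Equally numbered libraries thus showed no strong shared deviation. Whether libraries with unlike numbers belong together cannot be told from these values. With the replicate block, 3708 genes were higher and 3359 lower. With the palbociclib numbers crossed, the block gave 4009 and 3726.

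Depth limits the low genes: with 13060374 to 16388606 counts a library, 3 counts are 0.183 to 0.230 CPM and no fold is given for a gene under that level in both groups. The filter on low counts ran over all A549 libraries, so 6 genes without a read in the palbociclib and PF-06873600 libraries were among those tested.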

Other observations

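Some genes had next to no reads with one drug and a clear level with the other. Of the genes tested, 13 had at most 3 counts in each palbociclib library and at least 20 in each PF-06873600 library. MAF, a transcription factor gene, had 3 and 2 counts with palbociclib, 90 and 97 with PF-06873600 and 2 and 1 in untreated cells. TNFRSF9, a receptor of the tumour necrosis factor family, had 2 and 3 counts with palbociclib and 59 and 59 with PF-06873600, and KCNH1, a potassium channel, 3 and 0 against 42 and 52. DTNA, which encodes a dystrobrevin, had no reads in the palbociclib and untreated libraries and 28 and 27 with PF-06873600, at least 7.50-fold higher against a floor of 3 counts per library. The others were MYH15, SPRR3, SLC52A1, DPF3, CDH11, PINCR, PDGFB, DIO2 and SBSN, which had 21 to 62 counts in the PF-06873600 libraries. SPRR3 and SBSN are genes of keratinizing epithelium. The reverse was seen for 3 genes. FAIM2 had 48 and 46 counts untreated, 66 and 97 with palbociclib and 0 and 0 with PF-06873600, at least 21.3-fold lower against the same floor. F13A1, a clotting factor subunit, had 28 and 33 counts with palbociclib and 2 and 1 with PF-06873600. LRRC32 had 140 and 83 counts untreated, 20 and 38 with palbociclib and 1 and 1 with PF-06873600.

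By type, 3491 of 13272 protein-coding genes were higher and 3070 lower with PF-06873600, so 49.4% were called. Of 1691 long noncoding genes, 219 were higher and 263 lower (28.5% called), and of 674 pseudogenes 50 and 72 (18.1%). Among protein-coding genes, 966 were at least 2-fold higher and 425 at least 2-fold lower, while the counts for long noncoding genes were 145 and 129.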
